A study of Drosophila melanogaster with 36 samples.

Results

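Thoraxes of flies expressing PABPN1-17ala were compared between day 6 and day 2 of adult life. The members were chosen by their labels alone and are 12 of the 36 arrays of the series, namely 6 arrays of PABPN1-17ala flies at day 6 and 6 at day 2. PABPN1-17ala flies had the genotype UAS-PABPN1-17ala/+; Mhc-Gal4/+, and control flies, with 6 arrays at day 6 and 6 at day 2, were Mhc-Gal4/+ without the PABPN1 transgene. Every fly thus carried the Mhc-Gal4 driver, which acts in muscle, whereas the thorax also holds epidermis, fat body, blood cells, nerves and gut, so that RNA of cells without the mutant protein was measured along with that of muscle. Each extract pooled 50 adult thoraxes, and each array compared an extract with a common reference, the pooled RNA of control flies at day 2, in which 3 arrays of each condition carried the sample in Cy5 and 3 carried it in Cy3. The labels do not say whether the Cy3 arrays hold the extracts of the Cy5 arrays with the dyes exchanged, so the 6 arrays of a condition may stand for 3 independent extracts. P-values were therefore taken within each dye, from a spread pooled over the arrays of all 6 conditions of the series and moderated across genes. They measure only spread between arrays.

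PABPN1 binds the poly(A) tail in the nucleus and stimulates its synthesis. Short expansions of its alanine tract cause oculopharyngeal muscular dystrophy, a late-onset disease in which nuclear aggregates form in muscle fibres and specific muscles weaken. Indirect flight muscle fills most of the fly thorax and depends on densely packed mitochondria, whose citric acid cycle feeds the respiratory chain. In the first days after eclosion the adult cuticle is still being thickened and tanned, and control flies of the same ages give the changes that occur without the mutant protein.

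The deposited values were read as log2 ratios of sample over reference, so that a level of 0 means the same abundance as in control flies at day 2 and a difference of 1 means a doubling. The base of the logarithm and the direction of the ratio were not given in the sources used here. The direction is likely, since all labels place the sample in the first channel and the reference in the second. In PABPN1-17ala flies at day 2, CG15617 lay between 2.98 and 3.32 over the arrays of both dyes. Not every gene had the same sign on both dyes, and muscle marker medians on these arrays were -0.25 to -0.03 (Cy5) and 0.36 to 0.45 (Cy3). GstD1, a detoxification enzyme known to be induced by oxidative stress, also lay above 0, between 1.18 and 1.64 on day 6 arrays and between 2.27 and 2.53 on day 2 arrays of PABPN1-17ala flies. On the 12 arrays the median ratio over all genes lay between -0.027 and 0.006. Within a dye, arrays of PABPN1-17ala flies correlated with each other across genes at 0.82 to 0.86 on day 6 and 0.47 to 0.80 on day 2, and at 0.25 to 0.55 between days, over genes that are not independent replicates. Array 1 of PABPN1-17ala flies at day 2, in Cy5, correlated with the other 2 of its dye at 0.474 and 0.497, and 1 of its labels names the control genotype whereas the others name PABPN1-17ala. It was kept, and its ratios of 3.16 for CG15617 and 2.72 for Gadd45 lay above every control array. Without that array 82 genes were higher and 145 lower at day 6, against 95 and 150 with it, and 45 genes in place of 33 differed between genotypes.

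Of 13791 genes tested, 95 (0.689%) were up-regulated and 150 (1.09%) were down-regulated at day 6 relative to day 2 in thoraxes expressing PABPN1-17ala (limma within each dye, Benjamini-Hochberg adjusted p below 0.05 on the larger p of both dyes). In all 245 of these genes (1.78%) the day 6 arrays lay entirely above or entirely below the day 2 arrays on both dyes. The same arrays chose these genes, so their separation is no independent support. Among all genes tested, 648 (4.70%) lay entirely above and 722 (5.24%) entirely below at day 6. The median log2 change was 0.76 among up-regulated genes and -0.91 among down-regulated genes, and the extremes were 1.96 and -3.82, while the median over all genes tested was 0.01. In control thoraxes over the same interval 31 genes rose (0.225%) and 49 fell (0.355%), 80 in all, which became 34 without control day 6 array 6, 53 without control day 6 array 2, 50 without control day 2 array 4, and 240 after quantile normalization. Of the genes that rose in PABPN1-17ala flies 24 also rose in control flies, which is 25.3% of the PABPN1-17ala list and 77.4% of the control list. Of those that fell, 38 also fell in control flies, 25.3% and 77.6% of the 2 lists, and no gene called in both genotypes moved in opposite directions. The median change in control flies was 0.19 for the 95 genes and -0.44 for the 150 genes, against 0.00 over all genes. In control flies 69 of the 95 genes and 133 of the 150 changed in the same direction. Only 17 of the 95 and 11 of the 150 passed the test of the difference between genotypes given next. A call in PABPN1-17ala flies alone thus does not show that the genotypes differ. The change between days itself differed between PABPN1-17ala and control flies for 33 genes (0.239%), with 22 differences positive (0.160%) and 11 negative (0.0798%). This count was 14 to 21 without any 1 of control day 6 arrays 1, 4, 5 and 6, control day 2 arrays 4 and 5, PABPN1-17ala day 6 arrays 5 and 6 and PABPN1-17ala day 2 arrays 2, 5 and 6, and 235 when all 36 arrays were fitted together with a term for dye. At an unadjusted p below 0.05 by limma, 368 of the 13791 genes were higher and 447 lower in PABPN1-17ala flies. In control flies 171 were higher and 297 lower, and 161 differences were positive and 131 negative.

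**Figure D1:**
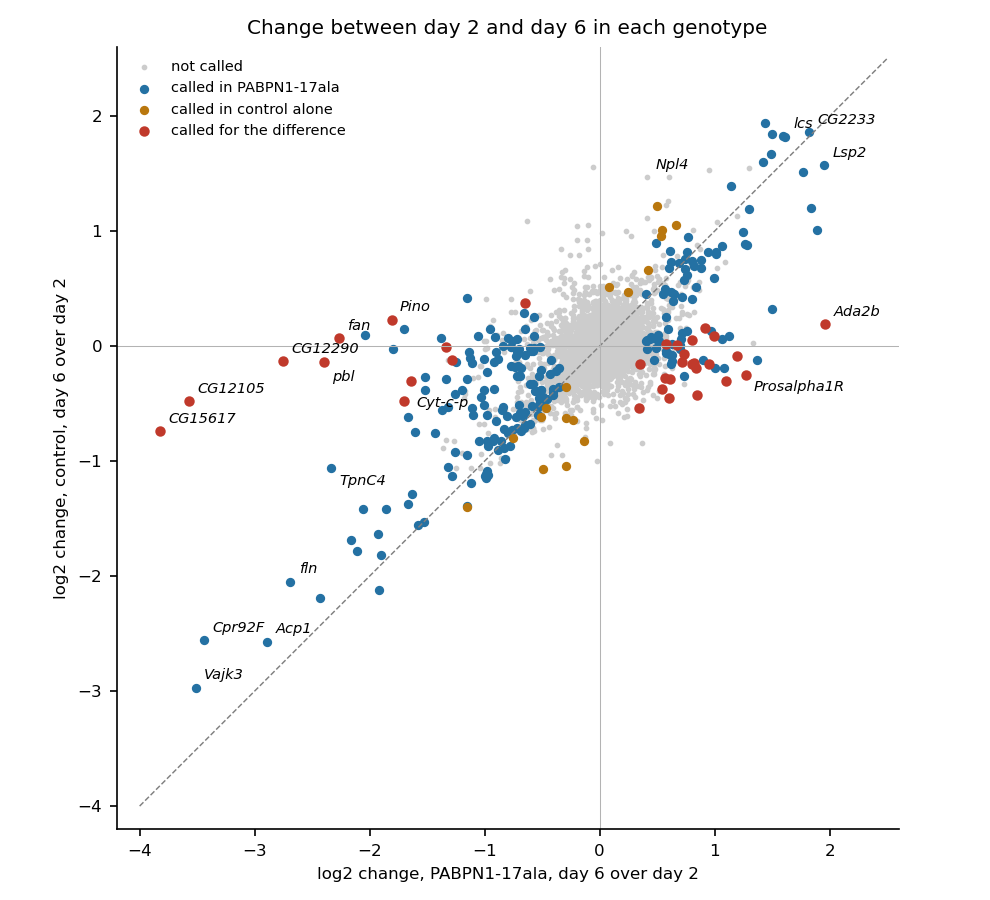
Log2 change from day 2 to day 6 in PABPN1-17ala thoraxes (x axis) against that in control thoraxes (y axis), 1 point per gene, with the dashed line where both changes are equal. Vajk3, Cpr92F and Acp1 fell in both genotypes, whereas CG15617 and CG12105 at the far left and Ada2b at the far right had control changes of -0.74, -0.48 and 0.19 that did not pass the test.

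The 2 largest decreases, in CG15617 and CG12105, were in genes that stood high above the reference on day 2 in PABPN1-17ala flies. CG15617 had log2 ratios of -0.74, -0.41 and -0.50 (Cy5) and -0.60, -1.07 and -0.65 (Cy3) in PABPN1-17ala flies at day 6, against 3.16, 3.22 and 3.32 (Cy5) and 3.15, 3.13 and 2.98 (Cy3) at day 2. The 2 ages were thus far apart, and the day 6 arrays overlapped those of control flies at day 6, which lay between -0.80 and -0.50. Its change of -3.82 was a 14.2-fold decrease (SE 0.13 in Cy5 and 0.25 in Cy3, adjusted p = 7.28e-07), against a change of -0.74 in control flies that did not pass the test, and the difference of -3.08 passed (adjusted p = 0.00104). CG12105 lay between -1.52 and -1.07 with a median of -1.2 on day 6 arrays, against 2.24 to 2.46 with a median of 2.36 on day 2 arrays. It fell 11.9-fold (adjusted p = 2.35e-09), with a difference from control flies of -3.09. CG12290 (-2.75), Pino (-1.81), fan (-2.27) and pbl (-2.40), which is needed for cytokinesis, also fell, and the difference from control flies passed the test for each of these 4 genes. Pino lay between 0.73 and 1.23 at day 6 and between 2.36 and 3.27 at day 2 in PABPN1-17ala flies, and thus remained above the reference at both ages.

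Gadd45, a growth arrest and DNA damage response gene, had ratios of 1.34, 1.89 and 1.87 (Cy5) and 1.6, 1.55 and 2.05 (Cy3) in PABPN1-17ala flies at day 6, against 2.72, 3.99 and 3.88 (Cy5) and 3.01, 4.13 and 3.36 (Cy3) at day 2. Both ages lay above all control arrays of days 6 and 2, which ranged from -0.04 to 0.18. The 3.48-fold decrease passed the test (log2 change -1.80, adjusted p = 0.000827), and the difference from the control change was -1.77 with an adjusted p of 0.0557, above the threshold. Mmp1, a matrix metalloproteinase, lay between -0.30 and -0.09 at day 6 and between 0.69 and 1.5 at day 2. Its fall of 1.28 on the log2 scale differed from that of control flies by -1.16 (adjusted p = 0.00676). Ant2, an ADP/ATP carrier of the inner mitochondrial membrane, fell by 1.34 and differed from control flies by -1.32 (adjusted p = 0.027). The neighbouring carrier gene sesB also fell, by 1.01, and since both genes overlap on the X chromosome their probes may share transcripts. GstD1 changed by -0.95 with an adjusted p of 0.0746 and was not called.

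**Figure D2:**
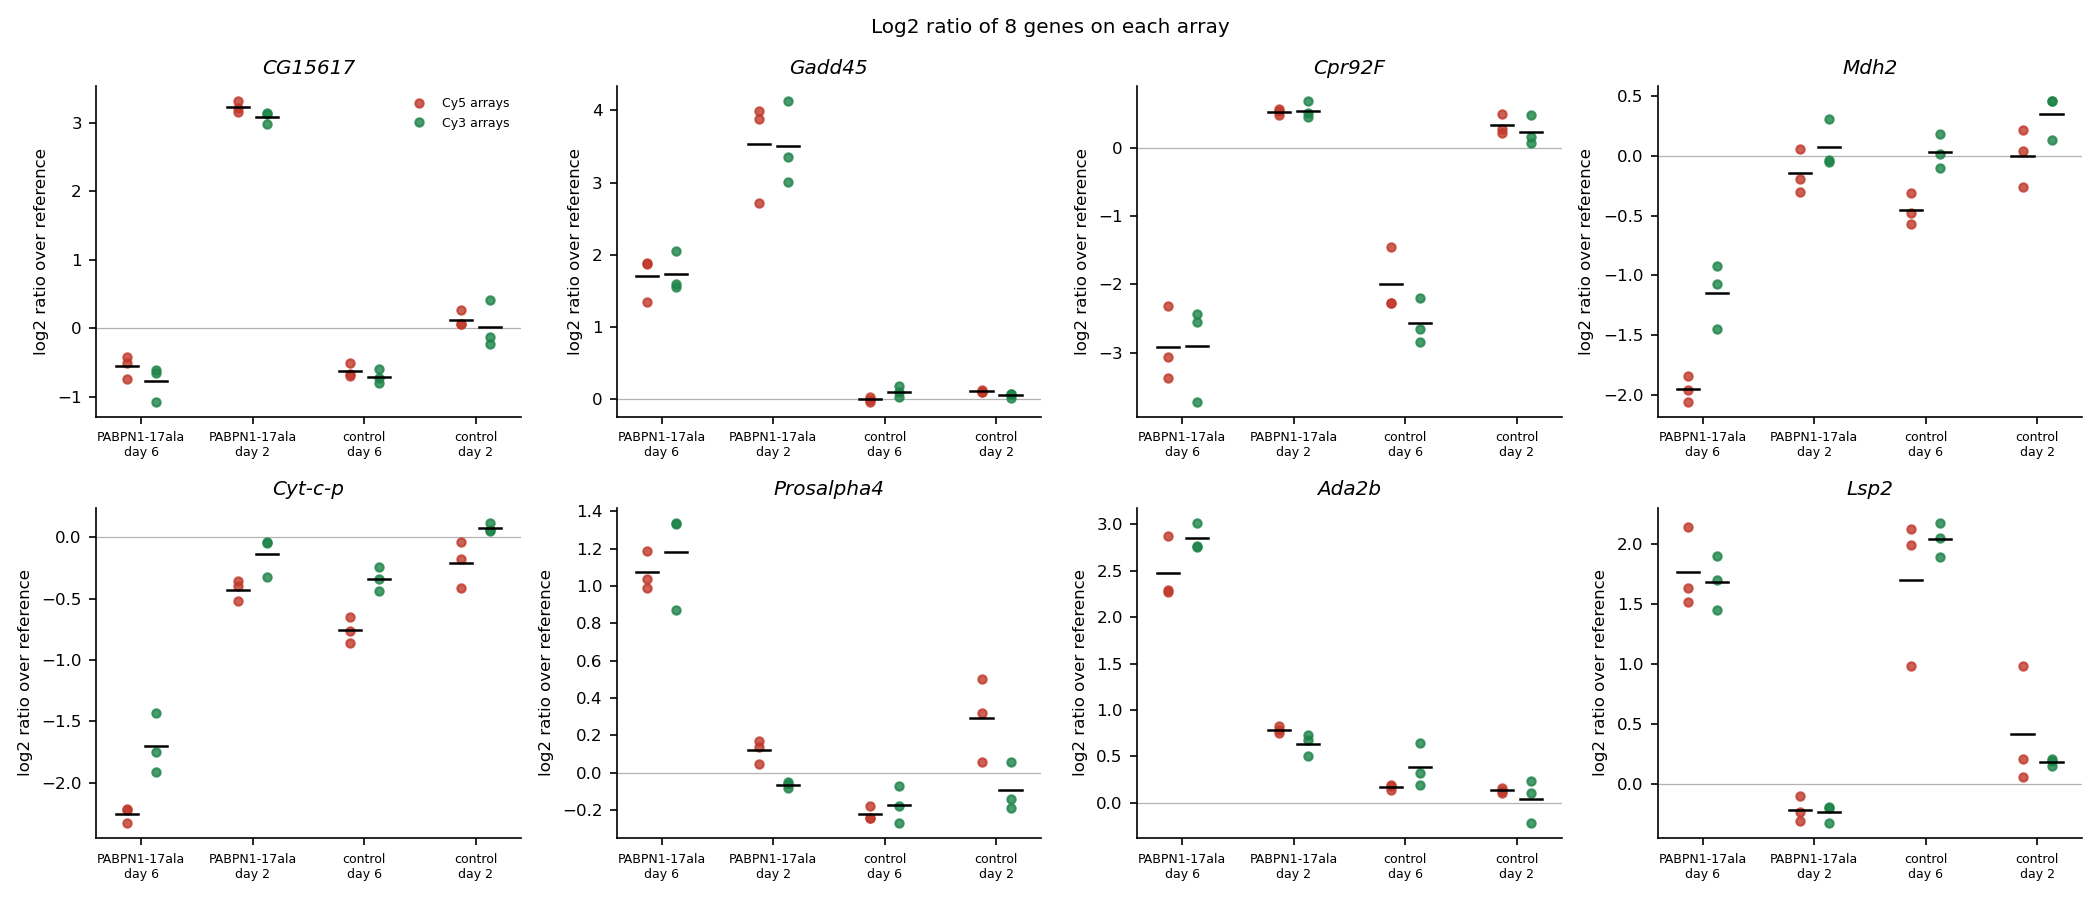
Log2 ratio over the common reference of 8 genes on each array (y axis) for PABPN1-17ala and control thoraxes at day 6 and day 2 (x axis), with Cy5 arrays in red, Cy3 arrays in green and bars at the mean of 3 arrays. CG15617 and Gadd45 are high in PABPN1-17ala flies at day 2, Cpr92F and Lsp2 move in both genotypes, Mdh2 and Cyt-c-p are lowest in PABPN1-17ala flies at day 6, and Prosalpha4 and Ada2b are highest there.

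Several genes of cuticle and chitin were among the largest decreases, and many of them fell in control flies as well. Vajk3, a cuticular gene, lay between -2.95 and -1.84 with a median of -2.31 in PABPN1-17ala flies at day 6, against 0.96 to 1.45 with a median of 1.1 at day 2. Control flies showed the same order, with medians of -2.06 at day 6 and 0.88 at day 2. The change was -3.51 in PABPN1-17ala flies (11.4-fold, adjusted p = 0.00139) and -2.97 in control flies (adjusted p = 0.011), and the difference of -0.54 did not pass the test. Cpr92F, a chitin-binding cuticle protein, fell by 3.44 in PABPN1-17ala flies and by 2.56 in control flies, and Acp1, an adult cuticle protein, fell by 2.89 and 2.57 in the same order. The chitin-binding protein obst-A fell by 1.53 in each genotype, with a difference of 0.01. The chitin deacetylase serp (-1.93), the chitin-binding protein Gasp (-1.86), the UDP-N-acetylglucosamine pyrophosphorylase mmy (-1.63) and Gfat1 (-0.92), the first enzyme of the hexosamine pathway, also fell in PABPN1-17ala flies, as did ple (-1.10), the tyrosine hydroxylase that supplies cuticle tanning. Among 77 genes of chitin and cuticle assembly tested, 12 fell and 1 rose in PABPN1-17ala flies and 9 fell in control flies, where 1.09% and 0.355% of all genes fell, while the median over the list was -0.02, close to that of all genes. This list was assembled after values were seen. Among 123 cuticle proteins 5 fell and 1, Cpr65Au (1.06), rose in PABPN1-17ala flies, and 4 fell in control flies.

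Of the sarcomere genes, flightin, TpnC4 and Mhc fell at day 6 in PABPN1-17ala flies. Flightin (fln), a myosin-binding protein of flight muscle, lay between -4.29 and -2.64 with a median of -3.64 in PABPN1-17ala flies at day 6, against -1.11 to -0.65 with a median of -0.87 at day 2. In control flies it lay between -2.40 and -1.40 at day 6 and between -0.73 and 0.79 at day 2. It fell in both genotypes, by 2.69 in PABPN1-17ala flies (adjusted p = 0.00113) and by 2.05 in control flies (adjusted p = 0.011). TpnC4, the troponin C of flight muscle, fell by 2.34 in PABPN1-17ala flies (adjusted p = 0.000164) and changed by -1.06 in control flies (adjusted p = 0.441). Myosin heavy chain (Mhc), whose promoter drives Gal4, had ratios of -1.97, -1.5 and -2.11 (Cy5) and -0.06, -0.27 and -0.69 (Cy3) at day 6, against 0.33, -0.11 and -0.25 (Cy5) and 0.85, 1.34 and 0.90 (Cy3) at day 2. The ages did not overlap on either dye, although the dyes differed in level, and Mhc fell by 1.61 (adjusted p = 0.00962), against -0.75 in control flies. The difference between genotypes did not pass the test for any sarcomere gene, of which 2 differences were positive and 1 was negative at an unadjusted p below 0.05.

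Of 41 sarcomere genes tested 3 fell, against 1.09% of all genes, and none rose in PABPN1-17ala flies, with a median of -0.31. At an unadjusted p below 0.05, 14 were lower and 0 higher, against 447 and 368 of all 13791 genes tested. In control flies 2 fell, with a median of -0.13. Of the 12 muscle markers, 11 were tested, and all 11 had day 6 arrays entirely below day 2 arrays on both dyes in PABPN1-17ala flies, compared with 5.24% of all genes and with 4 of the 11 in control flies. Their median change was -1.01 in PABPN1-17ala flies, of which 3 were called, and -0.68 in control flies, of which 1 was called. Per array the median of the markers lay between -1.41 and -1.11 (Cy5) and between -0.69 and -0.16 (Cy3) in PABPN1-17ala flies at day 6, against -0.25 to -0.03 (Cy5) and 0.36 to 0.45 (Cy3) at day 2. On control arrays of day 6 it lay between -0.79 and -0.44 (Cy5) and between -0.34 and -0.12 (Cy3). The genotypes thus overlapped at day 6 in Cy3. Ratios to a reference do not show whether a marker is absent. In RNA of whole thoraxes fewer muscle cells and less RNA per muscle cell cannot be told apart. A spot for the Gal4 coding sequence, present in both genotypes, had ratios of -0.90, -0.81 and -1.27 (Cy5) and -0.74, -0.85 and -1.25 (Cy3) in PABPN1-17ala flies at day 6, against 0.51, 0.48 and 0.35 (Cy5) and 0.87, 1.02 and 0.78 (Cy3) at day 2. The ages were fully separated, with a change of -1.64, and the exact two-sided permutation p was 0.1 on each dye, the smallest that 3 against 3 arrays allow. In control flies the spot changed by -1.06, and there too the ages were fully separated, with a permutation p of 0.1 on each dye.

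**Figure D3:**
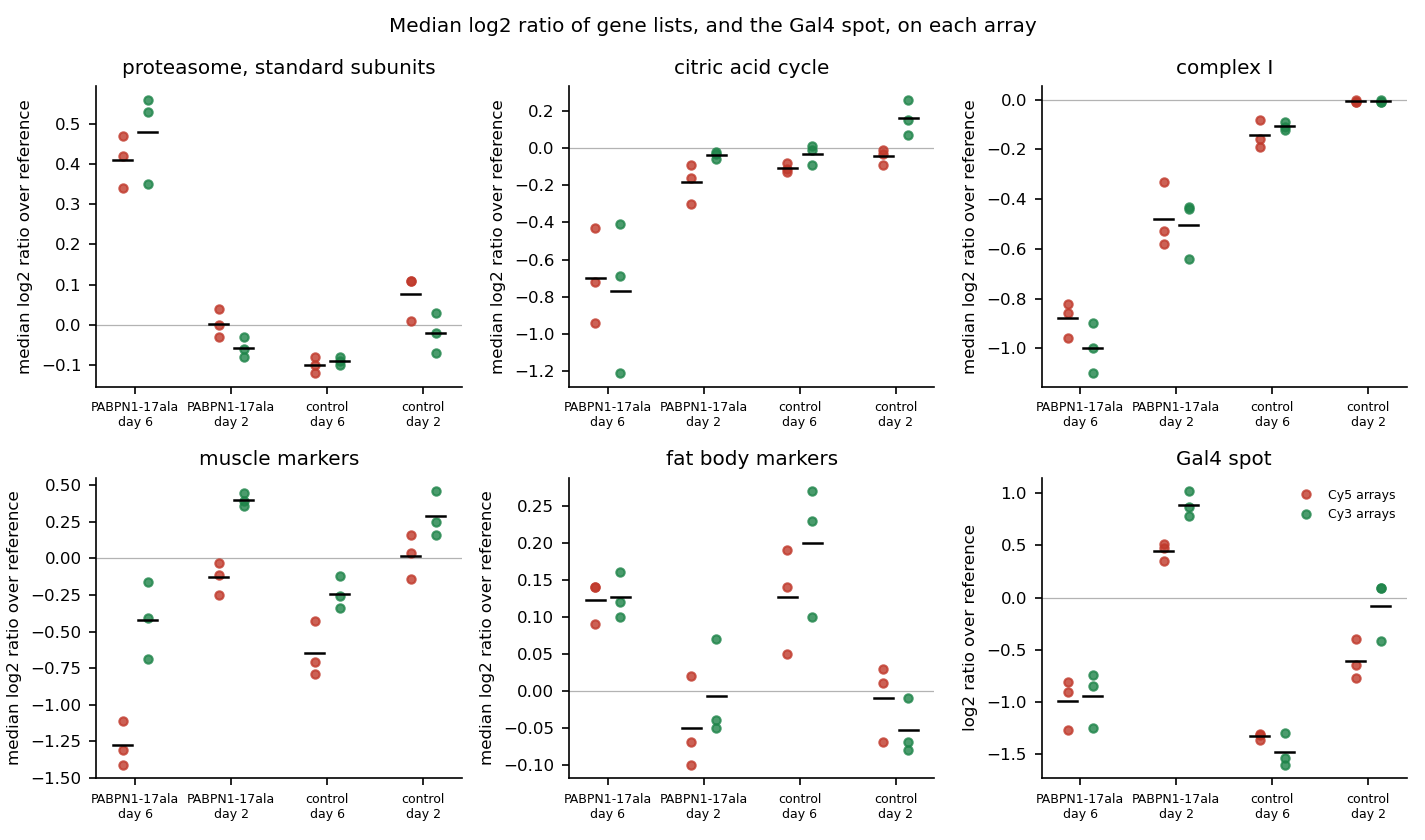
Median log2 ratio over the genes of 5 lists, and the ratio of the Gal4 spot (y axes), on each array of PABPN1-17ala and control thoraxes at day 6 and day 2 (x axes), with Cy5 arrays in red, Cy3 arrays in green and bars at the mean of 3 arrays. Standard proteasome subunits are highest, and citric acid cycle genes, complex I genes and muscle markers lowest, in PABPN1-17ala flies at day 6. For muscle markers the Cy3 arrays of both genotypes overlap at day 6.

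The citric acid cycle list also holds genes of the pyruvate dehydrogenase complex, and of its 21 genes 7 were down-regulated at day 6 in PABPN1-17ala flies. Malate dehydrogenase 2 (Mdh2) had ratios of -1.84, -2.06 and -1.96 (Cy5) and -1.07, -0.92 and -1.45 (Cy3) at day 6, against -0.30, 0.06 and -0.19 (Cy5) and -0.05, 0.31 and -0.03 (Cy3) at day 2. It fell 2.86-fold (log2 change -1.52, SE 0.14 in Cy5 and 0.15 in Cy3, adjusted p = 0.000276), whereas the change in control flies was -0.38 and did not pass. The isocitrate dehydrogenase subunit Idh3a (-1.52), the citrate synthase kdn (-1.11), the pyruvate dehydrogenase subunits Pdha (-1.37) and Pdhb (-1.05), and the acyltransferase subunits muc (-1.01) and CG5214 (-1.03) also fell. These 7 of 21 compare with 1.09% of all genes, none of the 21 rose, and 5 lay above 0. The median was -0.74, against 0.01 over all genes, and was -0.38 with 6 lower genes after quantile normalization. In control flies none of the 21 was called (3 lower at an unadjusted p below 0.05) and the median was -0.21. The difference between genotypes passed for none of the 21 by limma, and for Mdh2 it was -1.13 with an adjusted p of 0.161. At an unadjusted p below 0.05, 4 of the 21 differences were negative, against 131 of all 13791 genes tested. The muscle markers given above fell in the same arrays, and their part in these changes was not tested.

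Respiratory chain genes were affected in part. Cytochrome c (Cyt-c-p) lay between -2.33 and -1.43 with a median of -2.06 at day 6, against -0.52 to -0.04 with a median of -0.34 at day 2, and control flies at both ages lay between -0.86 and 0.12. It fell 3.24-fold (adjusted p = 1e-05), and the difference from control flies was -1.21 (adjusted p = 0.0202). Gpo1, the mitochondrial glycerol-3-phosphate dehydrogenase, fell by 1.67 (adjusted p = 0.00087). Of 87 nuclear genes for subunits of the 5 respiratory complexes, 12 fell, against 1.09% of all genes, and none rose, with a median of -0.14, while none was called in control flies (9 lower and 1 higher at an unadjusted p below 0.05), with a median of -0.05. These 12 were 6 of 39 in complex I, 1 of 6 in complex II, 2 of 11 in complex III, 0 of 15 in complex IV and 3 of 16 in complex V. In complex IV 1 gene was lower and 1 higher at an unadjusted p below 0.05. Without array 6 of PABPN1-17ala flies at day 6, 4 of the 87 were lower, and without day 2 array 4, 5 or 6 the count was 6 or 7. In complex I it was 2 or 3 without any 1 of these 4 arrays, and the call in complex II was lost whichever array was left out.

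Complex I, the NADH dehydrogenase, was already below the reference at day 2 in PABPN1-17ala flies and lower still at day 6. Its median per array lay between -0.96 and -0.82 (Cy5) and between -1.10 and -0.90 (Cy3) at day 6, against -0.58 to -0.33 (Cy5) and -0.64 to -0.43 (Cy3) at day 2, and between -0.19 and -0.08 on control arrays of day 6. The median change of the list was -0.29, and -0.17 in control flies. ND-51, a core subunit, lay between -1.69 and -1.11 at day 6 and between -0.99 and -0.43 at day 2 in PABPN1-17ala flies, against 0.18 to 0.76 at day 6 and -0.22 to 0.37 at day 2 in control flies. It fell by 0.65 (adjusted p = 0.00865), changed by 0.37 in control flies without passing, and the difference of -1.02 passed (adjusted p = 0.0391). ND-42 fell by 0.98 (adjusted p = 0.000276). In the other complexes the succinate dehydrogenase subunit SdhA (-0.72), Cyt-c1 (-1.34), UQCR-C1 (-1.01) and the ATP synthase subunits ATPsyngamma (-1.25) and ATPsyndelta (-0.84) fell, as did Mitofilin (-1.26), which shapes the cristae. Several subunits were not called, with changes of -1.03 for ND-75 (adjusted p = 0.103), -0.52 for SdhB, -0.43 for ND-30, -0.21 for ND-23, -0.14 for SdhD and -0.09 for ND-B8, of which SdhB, ND-23, SdhD and ND-B8 were above 0 after quantile normalization. The muscle markers moved with these genes as well, and their part was not tested. After quantile normalization the median of complex I was -0.09 and that of the 87 genes -0.02, with 2 and 6 genes lower.

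Regulators of mitochondrial biogenesis were not called between the 2 ages. The changes were -0.03 for ewg, a homologue of nuclear respiratory factor, 0.05 for srl, the PGC-1 homologue, and -0.01 for the nuclear receptor ERR. None of 11 genes of this list was called, and none had an unadjusted p below 0.05 in either direction. Of 71 mitochondrial ribosomal proteins none was called (2 lower at an unadjusted p below 0.05), with a median of 0.00. Of 18 genes of beta-oxidation, 1, the acyl-CoA dehydrogenase CG3902 (0.88), rose, against 0.689% of all genes, and it rose in control flies as well (0.68). Of 23 glycolysis genes 1 fell, against 1.09% of all genes, and this was Gpo1. The list median was -0.22, which was -0.08 without array 4 of PABPN1-17ala flies at day 2 and -0.03 after quantile normalization. At an unadjusted p below 0.05, 6 of the 23 were lower, against 447 of all 13791 genes tested. Alas, the first enzyme of haem synthesis, remained low at both ages in PABPN1-17ala flies, between -1.27 and -0.85 at day 6 and between -1.40 and -0.71 at day 2, and control flies at both ages lay between 0.05 and 0.36.

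**Figure D4:**
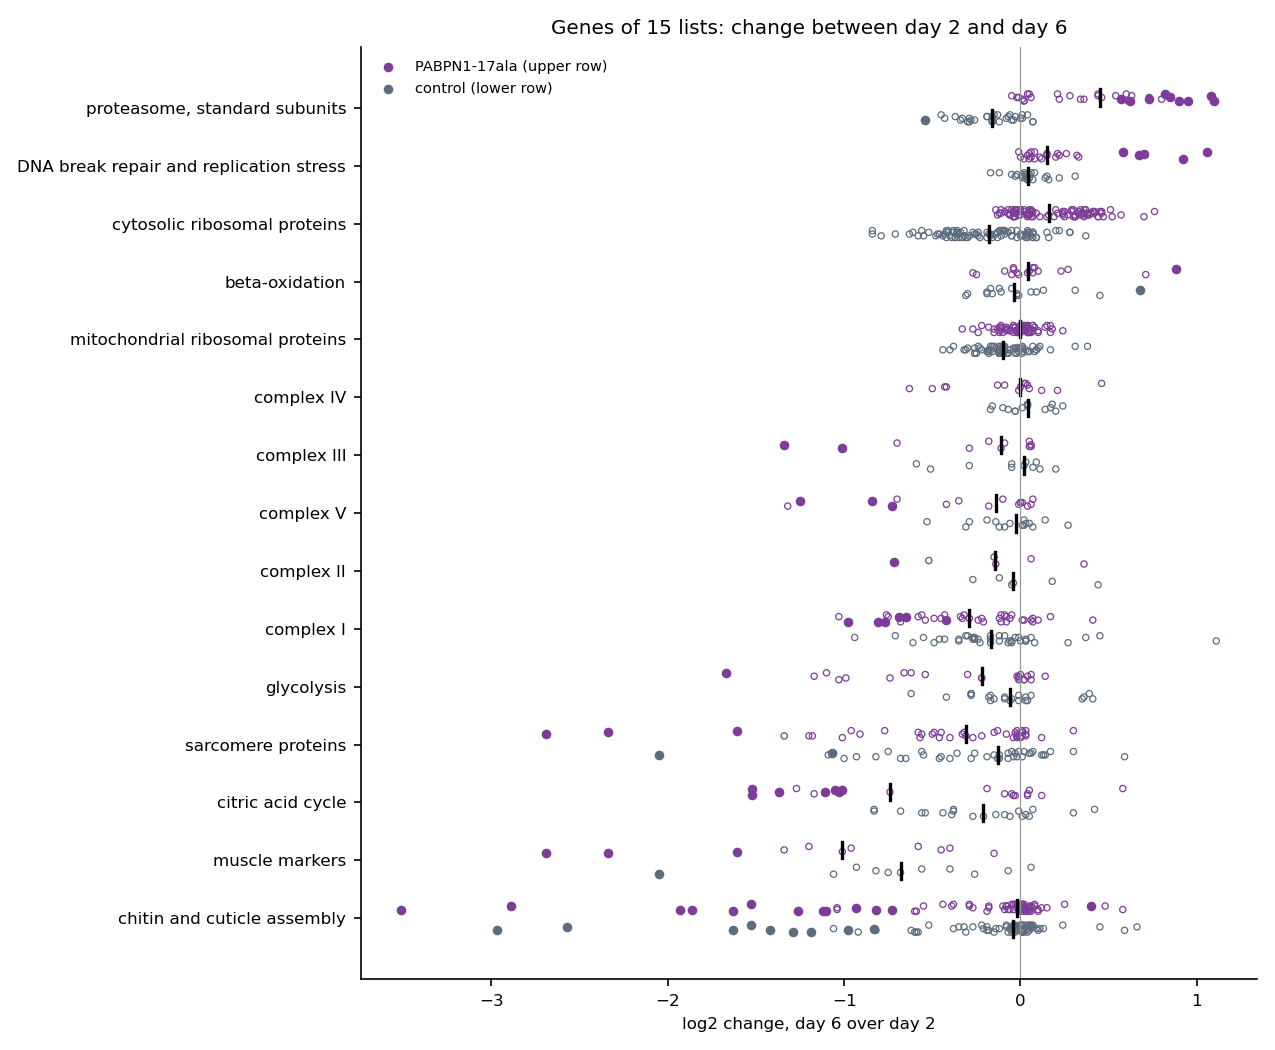
Log2 change from day 2 to day 6 of each gene (x axis) in 15 lists (y axis), with PABPN1-17ala thoraxes in the upper row and control thoraxes in the lower row of each list. Filled points are called genes and black bars mark the list's median, which is 0.45 in PABPN1-17ala and -0.16 in control thoraxes for standard proteasome subunits, and -0.74 and -0.21 for the citric acid cycle.

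Of 48 proteasome genes 11 rose, against 0.689% of all genes, and none fell at day 6 in PABPN1-17ala flies. Prosalpha4, a subunit of the outer ring of the proteolytic core, had ratios of 1.04, 0.99 and 1.19 (Cy5) and 0.87, 1.33 and 1.34 (Cy3) at day 6, against 0.14, 0.05 and 0.17 (Cy5) and -0.06, -0.08 and -0.05 (Cy3) at day 2. Control arrays lay between -0.27 and -0.07 at day 6 and between -0.19 and 0.50 at day 2, below all PABPN1-17ala arrays of day 6. It rose 2.14-fold (log2 change 1.10, adjusted p = 9.53e-05), and the difference from control flies was 1.40 (adjusted p = 0.00676). Prosbeta7 (1.08), Prosbeta4 (0.95), Prosalpha2 (0.90) and Prosalpha6 (0.82) of the core and Rpn9 (0.73), Rpn6 (0.62) and Rpn11 (0.57) of the regulatory particle also rose. Prosalpha1 (0.85) and its copy Prosalpha1R (1.27) rose, but they are neighbours on arm 2R and their probes may not separate them. Usp14, a deubiquitinase bound to the regulatory particle, lay between 0.66 and 1.18 at day 6 and between -0.09 and 0.11 at day 2, and rose by 0.84 (adjusted p = 0.000258).

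Of the 32 standard proteasome subunits tested 9 rose, against 0.689% of all genes, and none fell in PABPN1-17ala flies, with a median of 0.45, against 0.01 over all genes. In control flies none rose and 1, Rpt4 (-0.54), fell, and the median was -0.16. The list's median per array lay between 0.34 and 0.56 on day 6 arrays and between -0.08 and 0.04 on day 2 arrays of PABPN1-17ala flies, so that the ages did not overlap. The difference between genotypes passed for 10 of the 32 subunits, all positive, against 0.160% of all genes with a positive difference. These included Rpt4 (difference 0.88), Rpt3 (1.06), Rpn5 (0.90), Rpn10 (0.90) and Prosalpha3 (0.96), whose changes in PABPN1-17ala flies alone were between 0.34 and 0.80 and did not pass the test. Rpt4 lay between 0.23 and 0.74 in control flies at day 2, against 0.44 to 0.67 in PABPN1-17ala flies at day 6. Control day 2 array 2 (Cy5) had 1.08 for Rpt3, 0.68 for Rpn5 and 0.75 for Rpn10. The other control day 2 Cy5 arrays had 0.47 and 0.38, -0.07 and -0.05, and 0.17 and 0.04. Array 2 did not stand apart for Rpt4 or Prosalpha3. Of 16 further copies with a symbol ending in T or R, 2 rose (Prosalpha1R and Rpt6R, 0.41), with a list median of 0.05. With any 1 array left out 5 to 10 of the standard subunits rose, and 5 rose without day 6 array 1 or 3 or without day 2 array 2 or 3. After quantile normalization 14 rose.

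Other systems of protein quality control showed few calls. Among 28 heat shock proteins 1 rose, against 0.689% of all genes, and this was the small heat shock protein l(2)efl (0.97, adjusted p = 0.0234). None of 22 autophagy genes, 8 chaperonin subunits, 23 genes of endoplasmic reticulum stress, or 12 genes of the list of ubiquitin and Npl4 was called (limma), and at an unadjusted p below 0.05 there were 2 lower autophagy genes and 1 higher gene of endoplasmic reticulum stress. Npl4, a cofactor in the extraction of ubiquitylated proteins, changed by 0.41 in PABPN1-17ala flies and by 1.47 in control flies (adjusted p = 0.0808), neither of which passed. Cytosolic ribosomal proteins had a median of 0.16 in PABPN1-17ala flies and -0.18 in control flies, with none of the 91 called in either genotype or for the difference. At an unadjusted p below 0.05, 6 of the 91 were higher in PABPN1-17ala flies, 6 were lower in control flies, and 21 had a positive difference. Of all 13791 genes tested, 368, 297 and 161 did so.

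Ada2b, an adaptor subunit of the histone acetyltransferase complex SAGA, was the most strongly up-regulated gene by log2 change. Its ratios were 2.27, 2.88 and 2.29 (Cy5) and 2.77, 2.76 and 3.02 (Cy3) at day 6, against 0.75, 0.78 and 0.83 (Cy5) and 0.50, 0.73 and 0.68 (Cy3) at day 2, and control arrays lay between 0.14 and 0.64 at day 6 and between -0.22 and 0.24 at day 2. The rise was 3.88-fold (log2 change 1.96, adjusted p = 4.98e-06), and the difference from control flies was 1.77 (adjusted p = 0.00104). Prp31, a splicing factor of the U4/U6 particle, lay between 1.30 and 1.51 at day 6 and between 0.17 and 0.29 at day 2. It rose by 1.19 and differed from control flies by 1.28 (adjusted p = 0.00506). CG33494 (1.5), CG13026 (1.37) and CG18213 (1.12) rose in the same arrays.

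Several genes of DNA break repair and replication also rose. RPA1, the large subunit of the single-stranded DNA binding protein, lay between 0.93 and 1.44 with a median of 1.33 at day 6, against -0.19 to 0.55 with a median of 0.17 at day 2, and rose by 1.06 (adjusted p = 0.0035). The day 6 arrays of rad50, a subunit of the complex that tethers broken ends, lay between 0.73 and 0.98, against -0.22 to 0.15 at day 2, and it rose by 0.92 (adjusted p = 1.83e-05). Its partner mre11 rose by 0.58, the Ku subunit Irbp by 0.67 and the ribonucleotide reductase subunit RnrL by 0.70. These are 5 of 25 genes of the list tested, against 0.689% of all genes, with a median of 0.15, against 0.04 in control flies, where none was called and none had an unadjusted p below 0.05. The list was assembled after values were seen. The difference between genotypes passed for 3 of the 25, rad50 (0.77), mre11 (0.56) and Irbp (0.67), against 0.160% of all genes with a positive difference. For RPA1 it was 1.00 with an adjusted p of 0.054.

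A further group rose with age in PABPN1-17ala flies, and several of its genes rose in control flies too. Lsp2, a larval serum storage protein of the fat body, lay between 1.45 and 2.14 with a median of 1.66 in PABPN1-17ala flies at day 6, against -0.33 to -0.10 with a median of -0.22 at day 2. In control flies its median was 2.02 at day 6 and 0.2 at day 2. It rose by 1.95 in PABPN1-17ala flies (adjusted p = 0.00218), and its change of 1.57 in control flies had an adjusted p of 0.11. CG2233 rose by 1.82 in PABPN1-17ala flies and by 1.86 in control flies. The lipoprotein precursor apolpp (1.5 in PABPN1-17ala flies and 1.84 in control flies), the fatty acid desaturase Desat1 (1.59 and 1.83), the clock repressor vri (1.14 and 1.39) and lcs (1.61 and 1.82) also rose in both. TotA, a secreted stress response protein, rose in PABPN1-17ala flies by 1.89 (adjusted p = 0.00907) and changed by 1.01 in control flies (adjusted p = 0.96), and the difference was not called.

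Of 10 fat body markers tested, 2 rose (Lsp2 and apolpp), against 0.689% of all genes, and none fell. Their median was -0.04 in PABPN1-17ala flies and 0.22 in control flies, where 1 rose, against 0.225% of all genes. In 4 of the 10 the day 6 arrays lay entirely above the day 2 arrays, and in 2 entirely below, compared with 4.70% and 5.24% of all genes. Of 8 blood cell markers 1 rose, the prophenoloxidase PPO1 (0.62), with a list median of 0.18, all 8 above 0, and day 6 arrays entirely above day 2 arrays in 4. None of 13 neuron, 8 gut, 3 germ line and 5 eye markers was called, and 1 eye marker was lower at an unadjusted p below 0.05.

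Defence and detoxification genes were called in small numbers from small lists. Of all genes tested 0.689% rose and 1.09% fell in PABPN1-17ala flies. Among 58 genes of immune recognition and the Imd pathway 3 rose (5.17%) and 2 fell (3.45%). The genes that fell were pirk (-0.91), an inhibitor of Imd signalling, and dl (-0.71), an NF-kappaB factor. Of 22 antimicrobial peptide genes 1 rose, Drsl4 (1.28). Of 37 glutathione S-transferases 2 rose, GstE9 (0.99) and GstE12 (0.82), and 1 fell, GstS1 (-1.90, adjusted p = 0.0443), which changed by -1.82 in control flies (adjusted p = 0.0511). Of 91 cytochrome P450 genes Cyp9f3 (0.76) rose, and of 25 antioxidant enzymes Trxr1 (-0.51) fell. Of 51 odorant binding proteins Obp57a (1.26) and Obp99c (0.88) rose.

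Factors of the poly(A) tail were not called. Pabp2, the fly homologue of PABPN1, changed by 0.03, the deadenylase twin by 0.06 and smg, which recruits the deadenylase to specific mRNAs, by 0.15. None of 31 genes of this list was called and 1 was lower at an unadjusted p below 0.05. None of 11 small nuclear RNAs, 17 small nucleolar RNAs and 16 transfer RNAs was called, with 1 small nuclear RNA higher at an unadjusted p below 0.05.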

How the data were processed

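Thorax gene expression was measured on 36 two-colour arrays, 6 for each of 6 conditions (PABPN1-17ala and control flies at days 2, 6 and 11). Per the labels, total RNA was amplified and coupled to Cy3 or Cy5. The values deposited by the authors were read as log2 ratios of sample over a pool of control day 2 RNA, and their background correction, normalization and log base were not given in the sources used here. The table held 13843 lines, of which 13820 carried a fly gene identifier and 23 were other spots, and 0.187% of values were empty. Symbols came from a RefSeq gene table, in which 12986 identifiers matched by locus tag and 306 by synonym, and 528 matched none. The number of arrays limits the precision.

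Genes with values on at least 2 of 3 arrays of every condition and dye (13791) were tested with limma 3.58.1 in R 4.3.3, fitting the 6 condition means to the Cy5 and to the Cy3 arrays separately (18 arrays each). This shares 1 estimate of spread over all conditions, after the two-way design named in the study's methods. Changes were averaged over dyes, and a gene kept its weaker p-value, set to 1 where the dyes disagreed in sign, before Benjamini-Hochberg adjustment. Genes with an adjusted p below 0.05 are described as called, risen or fallen. On simulated data with 200 changed genes, 172 (86%) were called for PABPN1-17ala at day 6 against day 2, with 0 unchanged genes called. Replicate numbers were not used as pairs.

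The comparison, gene lists and rules were chosen with earlier results of these data known. Genes were named as follows: the 12 with the largest change in each direction, up to 4 called per list and direction, the 5 with the largest difference in each direction, and genes the study examined individually. Ant2, sesB, GstD1, Usp14, Cyt-c-p, CG13026, CG18213, Gfat1, mmy, ple, obst-A, Mitofilin, Pdhb, muc, CG5214, mre11 and the proteasome subunits Prosalpha3, Prosalpha6, Rpn5, Rpn6, Rpn9, Rpn10, Rpn11, Rpt3 and Rpt4 were chosen after their values were seen. Day 11 arrays entered the fits and are not described.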

Additional observations from a re-analysis of the deposited data

Results flagged for a closer look

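For 16 of the 94 genes named by rule the change from day 2 to day 6 differed between PABPN1-17ala and control flies by the limma test of that difference. Genes listed above as chosen after their values were seen are not counted here, although some of them passed this test. The difference, PABPN1-17ala minus control, was negative for CG15617 (-3.08), CG12105 (-3.09), CG12290 (-2.62), pbl (-2.26), fan (-2.34), Pino (-2.04), Mmp1 (-1.16) and ND-51 (-1.02). It was positive for Ada2b (1.77), Prosalpha1R (1.52), Prosalpha4 (1.40), Prosalpha1 (1.28), Prp31 (1.28), Prosbeta4 (1.10), rad50 (0.77) and Irbp (0.67).

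In 20 of 188 sets of 6 arrays examined, 1 set per named gene and age in PABPN1-17ala flies, a single array stood apart from the other 5 after the median of its dye had been subtracted. About 1 in 20 sets is marked by chance, and the critical values were not made for centred values. At day 6 these arrays had ratios of 1.17 (Pino, array 2), -2.22 (Gpo1, array 6), 0.30 (Pabp2, array 6), 0.49 (Rpt6R, array 5), 1.09 (Irbp, array 6), 1.07 (RnrL, array 6), 0.73 (Cyp9f3, array 2), 0.87 (Prosalpha4, array 4), 1.93 (vri, array 2) and 2.09 (CG2233, array 6). At day 2 they had ratios of 2.18 (CG12290, array 1), -0.06 (Gpo1, array 1), -1.01 (SdhB, array 1), 0.18 (smg, array 3), -0.09 (RnrL, array 1), -1.09 (l(2)efl, array 3), -0.11 (GstE9, array 1), -1.02 (Cpr65Au, array 3), -0.20 (CG33494, array 6) and 0.50 (Ada2b, array 4). Array 6 accounted for 5 of the 10 at day 6 and array 1, whose labels disagree, for 5 of the 10 at day 2.

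The spot for the Gal4 coding sequence, which names no fly gene and entered no test across genes, changed by -1.64 in PABPN1-17ala flies and by -1.06 in control flies.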

How the results depend on the processing

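The counts depended on how the dyes were joined, since the larger of both p-values is a strict rule. In 1 fit of the 36 arrays with dye as a covariate, 441 genes were higher and 508 lower at day 6 in PABPN1-17ala flies, 235 differed between genotypes and 582 were called in control flies. With means of assumed pairs of arrays these counts were 404, 485, 201 and 531, with Cy5 arrays alone 176, 329, 96 and 449, and with Cy3 arrays alone 285, 282, 88 and 288. All 95 and 150 genes were among those called in each of these 4 fits. For the fits of Cy5 or Cy3 arrays alone this was fixed in advance, since the main rule keeps the larger p of both dyes. Quantile normalization gave 148 higher, 187 lower, 60 for the difference and 240 in control flies, and a threshold of 0.01 gave 57, 93, 14 and 24. ANOVA without moderated variances gave 70 higher, 107 lower, 11 for the difference and 28 in control flies. A fit of only the conditions compared gave 136 higher and 202 lower genes, which held only 73 of the 95 and 113 of the 150. That fit gave 38 for the difference and 43 in control flies, and 9 named genes lost the call in it. With the replicate number as a block, 100 genes were higher and 144 lower (91 and 136 shared), 25 differed and 77 were called in control flies. Deviations of same-numbered PABPN1-17ala arrays correlated at -0.14 to 0.19, with 1 of 3 arrays per dye closest to its own number, and those of control arrays at -0.03 to 0.08, with 1 of 3 in Cy5 and 3 of 3 in Cy3. No set had every correlation above 0.1, so the arrays were not treated as pairs. Leaving out 1 array gave 65 (without day 6 array 3) to 89 higher genes, 109 (without day 6 array 6) to 145 lower genes, 14 (without control day 6 array 4) to 45 (without PABPN1-17ala day 2 array 1) for the difference, and 34 (without control day 6 array 6) to 75 in control flies. None of 79 called named genes changed sign under any alternative, and 26 lost the call when some array was left out. The most, 17, lost it without PABPN1-17ala day 6 array 6, and the fewest, 4, without PABPN1-17ala day 2 array 1. These 26 calls were thus not stable when 1 array was left out. Of 15 named genes not called, 7 changed sign. These were under quantile normalization SdhB (0.01), UGP (0.03), ND-23 (0.37), SdhD (0.35) and ND-B8 (0.04), with Cy3 alone SdhD (0.03), with Cy5 alone ND-B8 (0.04), and with 1 array left out ND-B8 (-0.20 to 0.00), ewg (-0.05 to 0.01) and ERR (-0.02 to 0.01). The causes of these changes were not tested. Centring or quantile scaling left the median over all genes at 0.003, against 0.008. Unstated background correction, a shared reference and 3 arrays per dye limit these values, and the self-test called 56% of genes changed by 0.5 on the log2 scale.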
